A study of Mus musculus with 12 samples.

Results

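Cx3cl1 and Cxcl16 are the membrane-bound chemokines of the mouse. They were described here together with their receptors Cx3cr1 and Cxcr6 and with the proteases Adam10 and Adam17 that cut them from the cell surface. These 6 genes, of 46603 in the count table, were chosen by symbol for this ligand, receptor and protease relation, with earlier results of both genotype comparisons known. No value was used as a limit for choosing them, but their genotype values are for that reason a description. The adjusted p-values below come from fits over all genes and serve to place each gene in its fit, not as independent evidence. Bulk RNA-seq had been made from the ileum and from the ankle synovium of TNFdARE mice and of WT littermate controls. Each of the 4 groups held 3 libraries, numbered as biological replicates: WT ileum, TNFdARE ileum, WT synovium and TNFdARE synovium. The TNFdARE allele deletes the AU-rich element of Tnf, an RNA element that limits Tnf expression, in every cell of the animal, and the model develops ileitis and arthritis. The labels give no age, no treatment and no statement on whether both tissues came from the same mice, and the purpose given is to compare gene expression of TNFdARE and WT in each tissue.

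Most chemokines are secreted, whereas CX3CL1 (fractalkine) and CXCL16 are made as transmembrane proteins with the chemokine domain on a mucin-like stalk. In that form they hold cells that carry the receptor, CX3CR1 on monocytes, macrophages and some lymphocytes, and CXCR6 on T cells, NKT cells and innate lymphoid cells. ADAM10 cuts both ligands in resting cells and ADAM17 adds to the cutting after stimulation, which releases soluble chemoattractants, and ADAM17 is also the enzyme that releases TNF. RNA levels do not report protein, the share that is shed or the activity of either protease.

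Cx3cl1 (ENSMUSG00000031778) lies on chromosome 8 from 94772009 to 94782427 on the plus strand in GRCm38, and Cxcl16 (ENSMUSG00000018920) on chromosome 11 from 70453983 to 70459984 on the minus strand. The receptors both lie on chromosome 9, Cx3cr1 (ENSMUSG00000052336) with its principal transcript from 120048683 to 120069879 on the minus strand and Cxcr6 (ENSMUSG00000048521) from 123806475 to 123811760 on the plus strand. Adam10 (ENSMUSG00000054693) lies on the same chromosome from 70678997 to 70780229 on the plus strand, and Adam17 (ENSMUSG00000052593) on chromosome 12 from 21323509 to 21373632 on the minus strand. Exons of Cxcl16 share 552 bases, 18.3% of its exon length, with Zmynd15 on the opposite strand. Exons of Adam17 share 311 bases, 4.35%, with Iah1, and exons of Cx3cr1 share 78 bases, 1.73%, with Gm33858, both on the opposite strand. The library kit marks strand, but the sources used here do not give the strand setting of the counting, so reads from these shared stretches cannot be assigned with certainty.

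The 27 bases before the RefSeq start of Cx3cl1 are shown because, of the 6 genes, this one had the largest difference of genotype effects between the tissues. They are read 5′ to 3′ on the plus strand at chr8:94772153-94772179 (RefSeq, GRCm38.p6), with a GC box (GGGCGG) and a TATA sequence (TATAAA) in capitals.
Cx3cl1: GGGCGGaggctgccagcccatTATAAA
The GENCODE start of the gene given above lies upstream of this stretch, so the 2 annotations place the start differently. RefSeq windows from 250 bases before to 50 bases from the start on were matched by symbol for 5 of the 6 genes, Cx3cl1, Cx3cr1, Cxcr6, Adam10 and Adam17. On both strands these windows were searched for the TATA sequence, the GC box, the E-box (CACGTG) and the NF-kB consensus. Of 32851 such windows, 13.6% held the TATA sequence, 35.7% the GC box and 7.15% the E-box. The window of Adam10 held 3 matches to the GC box and 1 to the E-box, and that of Adam17 held 1 GC box. None of the 5 windows held the NF-kB consensus, which was in 4.51% of all windows, an AP-1 element (TGA and TCA with C or G between them, 5.2%) or a STAT element (TTC and GAA with 3 bases between them, 8.3%); this says only that these letters are not in these windows.

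Library totals ran from 14267834 to 16224402 counts, so that 1 count corresponded to 0.0616 to 0.0701 CPM (counts scaled to the library total). Levels are given as CPM scaled over all 12 libraries with TMM factors. Tnf, the altered gene, was at 1.39 to 2.64 CPM in the WT ileum, 17.2 to 82.5 in the TNFdARE ileum, 1.88 to 2.14 in the WT synovium and 28.3 to 38.5 in the TNFdARE synovium, so every TNFdARE library was above every WT library of its tissue. TNFdARE ileum replicate 2 was the lowest of its group for Tnf and for summed phagocyte genes (1743 CPM, against up to 6276 in that group). Summed levels of 13 skeletal muscle genes were 10853 to 22298 CPM in the WT synovium and 1924 to 7933 in the TNFdARE synovium, so muscle RNA moved with genotype there. A synovium fit with the muscle level as a covariate, added after the data were seen, is given for Adam10 and beside the list counts. Ileum counts without TNFdARE replicate 2 are given beside the list counts too. Since the muscle sums of the genotypes did not overlap, the covariate fit cannot cleanly separate muscle RNA from genotype. Calls over all genes went from 3713 to 505 in it. A call kept or lost there does not tell the part of muscle RNA, which was not tested. In bulk tissue, more cells of a type and more RNA per cell cannot be told apart.

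Cx3cl1, the ligand for CX3CR1, was low in the WT synovium alone. In the WT ileum its levels were 132.3, 131.5 and 131.2 CPM in replicates 1, 2 and 3, and in the TNFdARE ileum 98.4, 122.3 and 126.7. In the WT synovium they were 23.0, 19.03 and 22.3 CPM, and in the TNFdARE synovium 137.3, 129.2 and 102.6. The 3 WT synovium libraries thus lay far below the other 9, and the TNFdARE synovium reached the range of the ileum. In the synovium this was a log2 fold change of 2.54 ± 0.13 (SE, n = 3 against 3; edgeR adjusted p = 0.000126 over 15599 genes), a rise of 5.82-fold. In the ileum all 3 TNFdARE libraries were below all 3 WT libraries, as were those of 18.5% of all genes tested, and the log2 fold change of -0.18 ± 0.10 did not pass the test (edgeR adjusted p = 0.272). An interval of 2 SE around that value ran from -0.38 to 0.02, below the interval of the synovium value from 2.28 to 2.80.

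Cxcl16, the ligand for CXCR6, which also serves as a scavenger receptor on macrophages, was higher in TNFdARE libraries of both tissues. In the ileum its levels were 43.9, 32.3 and 41.5 CPM in WT and 213.3, 95.8 and 180.6 in TNFdARE. In the synovium they were 20.4, 16.6 and 22.4 CPM in WT and 187.7, 125.7 and 175.8 in TNFdARE. The groups did not overlap in either tissue, and replicate 2 was the lowest of each of the 4 groups. The log2 fold change was 3.06 ± 0.19 in the synovium (SE, n = 3 against 3; edgeR adjusted p = 0.000416), a rise of 8.36-fold. In the ileum it was 2.06 ± 0.32 (edgeR adjusted p = 0.0404), a rise of 4.18-fold. Zmynd15, which shares exon bases with Cxcl16 on the opposite strand, was at 9.97 ± 1.46 CPM in the WT ileum, 32.9 ± 11.3 in the TNFdARE ileum, 4.94 ± 0.45 in the WT synovium and 26.1 ± 6.1 in the TNFdARE synovium (SD, n = 3 each). It moved with Cxcl16, and its part in the Cxcl16 counts was not tested.

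**Figure D1:**
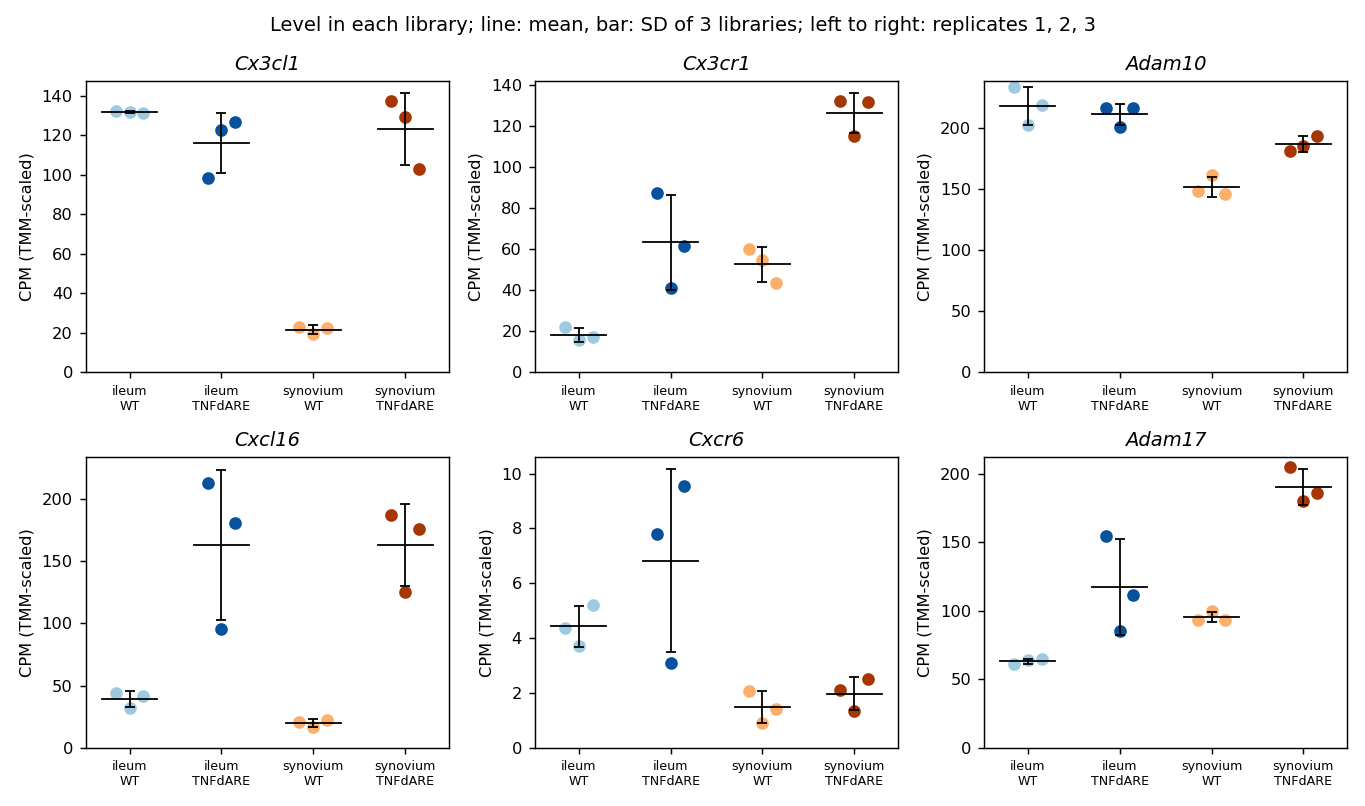
Level of each of the 6 genes in CPM (vertical axis from 0) in each of the 12 libraries; points are libraries, horizontal lines are group means and bars are SDs of 3 libraries. Cx3cl1 is low in the 3 WT synovium libraries alone, whereas Cxcl16, Cx3cr1 and Adam17 are higher in every TNFdARE library than in every WT library of the same tissue.

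Cx3cr1, the fractalkine receptor of mononuclear phagocytes, was higher in TNFdARE libraries of both tissues. In the ileum its levels were 22.1, 15.5 and 16.9 CPM in WT and 87.3, 40.8 and 61.7 in TNFdARE. In the synovium they were 59.8, 54.5 and 43.3 CPM in WT and 132.2, 115.2 and 131.5 in TNFdARE. The groups did not overlap in either tissue, and the TNFdARE ileum spanned the range of the WT synovium. The log2 fold change was 1.81 ± 0.30 in the ileum (edgeR adjusted p = 0.0404) and 1.29 ± 0.12 in the synovium (edgeR adjusted p = 0.000869), rises of 3.50-fold and 2.44-fold (SE, n = 3 against 3 each).

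The rises of Cx3cr1 stood beside rises of other phagocyte genes. Of 20 phagocyte genes tested, 9 rose and 0 fell in the ileum, where their median log2 fold change was 1.93, and 14 rose and 0 fell in the synovium, with a median of 1.09. Of all genes tested, 4.12% rose and 1.57% fell in the ileum and 13.1% rose and 10.7% fell in the synovium, and their median was 0.00 in both tissues. With the muscle covariate 10 of the 20 rose in the synovium and 0 fell, and without TNFdARE replicate 2 in the ileum 18 rose and 1 fell. Over all genes, the covariate fit called 401 higher and 104 lower of 15599, and the fit without that replicate 2609 and 2024 of 15813. In the ileum Itgax, an integrin of dendritic cells and macrophages, rose by 2.70 ± 0.37 on the log2 scale, Zbtb46, a transcription factor of classical dendritic cells, by 1.42 ± 0.23 and Csf1r, the receptor for macrophage colony-stimulating factor, by 2.57 ± 0.39 (SE). In the synovium Ccr2, the receptor that draws monocytes from the blood, rose by 1.90 ± 0.08, Itgax by 1.73 ± 0.08 and Csf1r by 1.14 ± 0.08. Summed phagocyte levels were 607 to 757 CPM in the WT ileum, 1743 to 6276 in the TNFdARE ileum, 2415 to 3028 in the WT synovium and 6721 to 8533 in the TNFdARE synovium, the same order of groups as for Cx3cr1. Per kb of exon, the ratio of Cx3cr1 to Csf1r was 0.287 ± 0.035 in the WT ileum and 0.178 ± 0.029 in the TNFdARE ileum, without overlap. In the synovium it was 0.177 ± 0.033 in WT and 0.195 ± 0.010 in TNFdARE, with overlap (SD, n = 3 each). Csf1r is only 1 of the 20 genes, and the direction of such a ratio depends on the gene taken. From WT to TNFdARE ileum, mean levels went from 80.9 to 478.4 CPM for Csf1r and from 18.2 to 63.3 for Cx3cr1. Those of the list genes Mrc1 and Itgam went from 27.3 to 42.0 and from 66.4 to 133.0 CPM. The part of phagocyte number in the rise of Cx3cr1 was not tested.

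Cxcr6, the receptor for CXCL16, had only 14 to 136 counts per library. In the ileum its levels were 4.37, 3.72 and 5.21 CPM in WT and 7.79, 3.098 and 9.56 in TNFdARE. In the synovium they were 2.08, 0.909 and 1.43 CPM in WT and 2.10, 1.33 and 2.50 in TNFdARE. The genotypes overlapped in both tissues, with TNFdARE ileum replicate 2 the lowest of all ileum libraries. The log2 fold changes of 0.63 ± 0.41 in the ileum (edgeR adjusted p = 0.335) and 0.45 ± 0.39 in the synovium (edgeR adjusted p = 0.436) did not pass the test. Intervals of 2 SE ran from -0.19 to 1.44 and from -0.32 to 1.22 on the log2 scale, so at this depth a change of 0 and a change of 1 both lay within the interval in each tissue. Without TNFdARE ileum replicate 2 the ileum value was 0.98 with an adjusted p of 0.0113 by the same edgeR test.

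**Figure D2:**
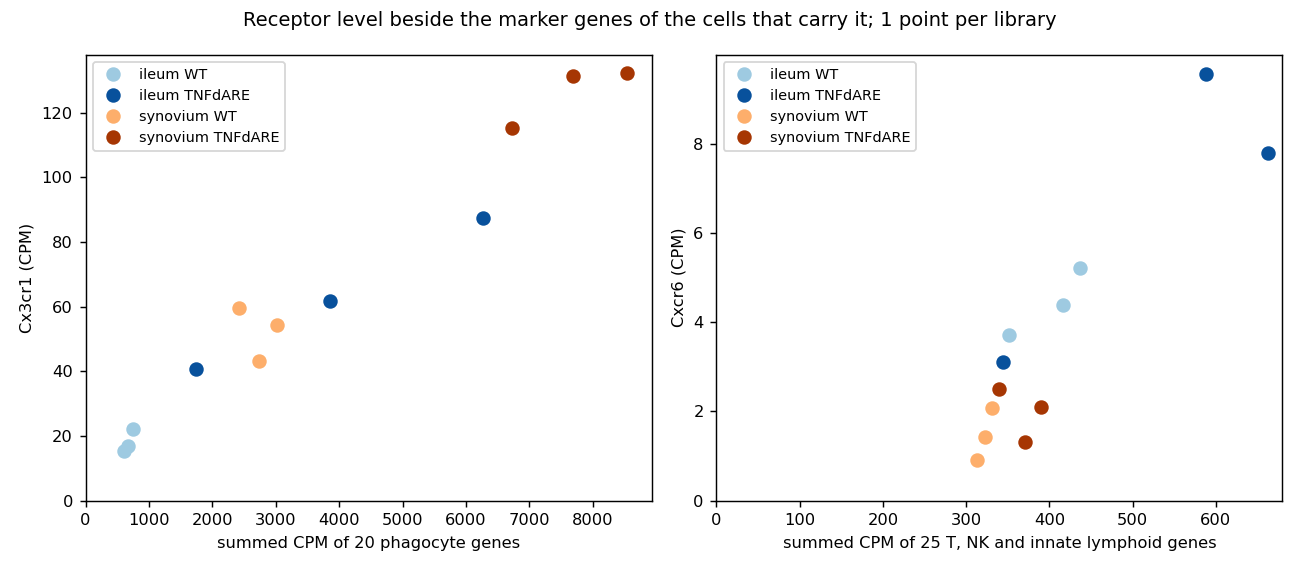
Cx3cr1 against the summed CPM of 20 phagocyte genes (left) and Cxcr6 against that of 25 T, NK and innate lymphoid genes (right); each point is 1 of the 12 libraries, colored by group. Both receptors are lowest where their summed marker genes are low, and TNFdARE ileum replicate 2 is the lowest of its group in both panels.

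With all libraries and no covariate, higher calls for genes of T, NK and innate lymphoid cells were near the share over all genes. In the ileum 1 of 25 tested rose (4.12% of all genes), Itga1, a collagen-binding integrin of tissue-resident lymphocytes that other cells also express, and 0 fell; the median log2 fold change was 0.49. In the synovium 3 of 23 rose and 6 fell (13.1% and 10.7% of all genes), with a median of -0.35. With the muscle covariate 1 rose and 0 fell (401 and 104 of all 15599 genes). Without TNFdARE replicate 2 in the ileum 12 rose and 1 fell (2609 and 2024 of all 15813 genes). In the synovium, without the covariate, Ccl5, a chemokine of activated T and NK cells, rose by 3.12 ± 0.24 on the log2 scale. Cd4 rose there by 0.86 ± 0.12, while Tbx21, a transcription factor of type 1 lymphocytes, fell there by 1.85 (SE 0.30). Summed levels of the 25 genes were 351 to 437 CPM in the WT ileum, 345 to 662 in the TNFdARE ileum, 313 to 331 in the WT synovium and 339 to 391 in the TNFdARE synovium. Per kb, the ratio of Cxcr6 to Cd3e, a chain of the T cell receptor complex, was 1.07 ± 0.20 in the WT ileum and 1.58 ± 0.02 in the TNFdARE ileum, and 1.47 ± 0.57 and 3.42 ± 0.16 in the WT and TNFdARE synovium (SD, n = 3 each). The groups did not overlap in either tissue, but these ratios rest on few counts and were not tested. Cd3e is only 1 of the 25 genes, and the direction of such a ratio depends on the gene taken. From WT to TNFdARE ileum, mean levels went from 8.99 to 9.08 CPM for Cd3e and from 4.43 to 6.81 for Cxcr6. Those of the list genes Trac and Cd4 went from 6.25 to 14.5 and from 14.8 to 67.0 CPM.

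Adam10, the constitutive sheddase of both ligands, varied little. In the ileum its levels were 233.6, 202.3 and 218.7 CPM in WT and 216.3, 200.8 and 215.9 in TNFdARE. In the synovium they were 148.5, 161.3 and 146.1 CPM in WT and 180.6, 185.5 and 193.6 in TNFdARE. The genotypes overlapped in the ileum and were apart in the synovium. The log2 fold change was -0.04 ± 0.08 in the ileum (edgeR adjusted p = 0.757), with an interval of 2 SE from -0.20 to 0.12. In the synovium it was 0.32 ± 0.07 (edgeR adjusted p = 0.0188), a rise of 1.25-fold. With the skeletal muscle level as a covariate the synovium value was 0.19 and no longer passed (edgeR adjusted p = 0.484). That level moved with genotype, so the lost call does not tell the part of muscle RNA. In that fit the other 4 genes called in the synovium still passed, at 2.92 for Cx3cl1, 3.16 for Cxcl16, 1.36 for Cx3cr1 and 1.07 for Adam17. On the deposited FPKM it was 0.24 and did not pass either (limma adjusted p = 0.0682), and the call was also lost without TNFdARE replicate 3 (0.29), WT replicate 1 (0.29) or WT replicate 3 (0.30).

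Adam17, the inducible sheddase that also releases TNF and the TNF receptors, was higher in every TNFdARE library than in every WT library of its tissue. In the ileum its levels were 61.0, 63.9 and 64.7 CPM in WT and 154.6, 85.6 and 111.7 in TNFdARE. In the synovium they were 93.4, 100.0 and 93.1 CPM in WT and 205.3, 180.5 and 185.9 in TNFdARE. The spread was wide in the TNFdARE ileum and narrow elsewhere. In the synovium the log2 fold change was 1.02 ± 0.07 (edgeR adjusted p = 0.000419), a rise of 2.03-fold. In the ileum it was 0.90 ± 0.21 and missed the threshold (edgeR adjusted p = 0.0550). It passed with DESeq2 (0.90, adjusted p = 0.00119) and in the edgeR fit over all 12 libraries (0.90, adjusted p = 0.00677). Of the 6 omissions of an ileum library it passed in 1, without TNFdARE replicate 2 (1.09, edgeR adjusted p = 0.00181). Over these omissions the value went down to 0.66 and the edgeR adjusted p up to 0.182. With limma-voom and on the deposited FPKM 0 of all genes passed in the ileum. Iah1, which shares exon bases with Adam17, was at 31.7 ± 2.2 and 30.4 ± 1.8 CPM in the WT and TNFdARE ileum, and at 25.2 ± 1.7 and 29.3 ± 2.3 in the WT and TNFdARE synovium (SD, n = 3 each).

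Of the 6 genes, 2 passed as higher and 0 as lower in the ileum, where 4.12% of 15462 genes tested were called higher and 1.57% lower. In the synovium 5 passed as higher and 0 as lower, against 13.1% higher and 10.7% lower of 15599 genes. In the ileum 3 of the 6 had every TNFdARE library above every WT library, as did 18.8% of all genes tested. In the synovium 5 of the 6 did, against 21.2%, and 0 were below, against 22.8%. Since the genes were listed with these comparisons known, nothing is read from these shares. The 2 ileum calls, Cxcl16 and Cx3cr1, were both lost without TNFdARE replicate 3 or any of the 3 WT replicates, and that of Cxcl16 also without TNFdARE replicate 1. Over the omissions that ended the calls, the log2 fold changes were 1.83 to 2.15 for Cxcl16 and 1.70 to 1.97 for Cx3cr1.

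The effect of the TNFdARE allele on Cx3cl1 differed between the tissues. In the model of all 4 groups, the log2 fold change in the synovium minus that in the ileum was 2.70 ± 0.18 (edgeR adjusted p = 0.000206), and the gene ranked 1 by p-value among 16964 tested. Of all genes tested, 5.28% were called with a higher and 6.80% with a lower value in the synovium, and without a replicate block Cx3cl1 was the 1 gene of the 6 that was called. The difference was 0.97 ± 0.38 for Cxcl16 (edgeR adjusted p = 0.119), with an interval of 2 SE from 0.21 to 1.74, and 0.34 ± 0.10 for Adam10 (edgeR adjusted p = 0.0564). With the replicate number as a block the Cxcl16 difference was 1.01 ± 0.20 and passed (edgeR adjusted p = 0.0166). Both passed with DESeq2, at 1.05 for Cxcl16 (adjusted p = 0.0331) and 0.40 for Adam10 (adjusted p = 0.00114). For Cx3cr1 it was -0.54 ± 0.34, for Cxcr6 -0.20 ± 0.60 and for Adam17 0.09 ± 0.23, none of which passed. The interval of 2 SE for Adam17 ran from -0.37 to 0.56, and that for Cxcr6 from -1.41 to 1.00. The difference shares its libraries with the 2 genotype comparisons and repeats them in 1 value.

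**Figure D3:**
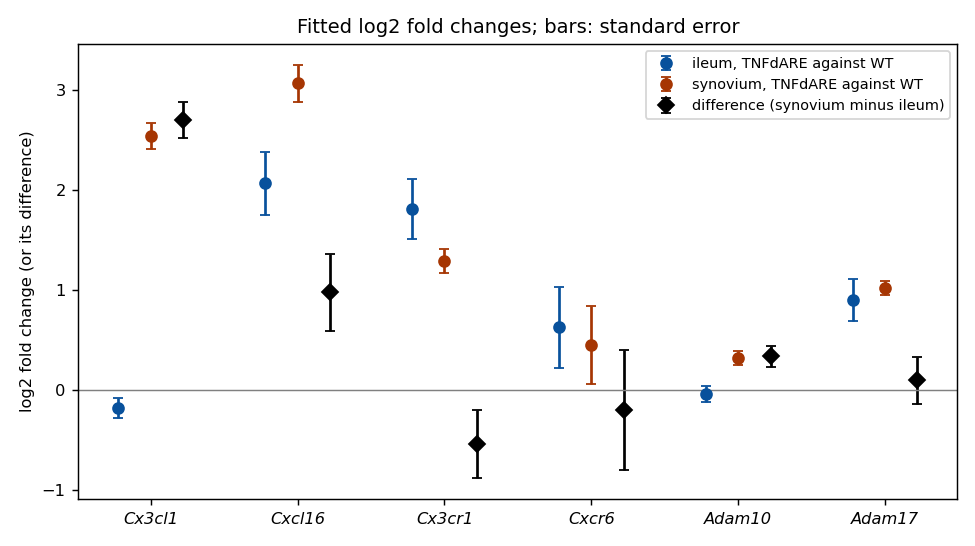
Fitted log2 fold change of TNFdARE against WT in each tissue, and the synovium value minus the ileum value (vertical axis), for each of the 6 genes; bars are standard errors, 3 libraries in each group. Cx3cl1 has the widest gap, -0.18 in the ileum against 2.54 in the synovium, while Adam17 has nearly equal values, 0.90 and 1.02.

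In WT mice the ligands and the receptor Cx3cr1 had opposite tissue orders. All 6 genes passed between the WT tissues, a comparison in which 38.2% of 16964 genes were called higher and 36.0% lower in the synovium. The WT synovium was lower than the WT ileum by log2 values of -2.61 ± 0.13 for Cx3cl1, -0.98 ± 0.28 for Cxcl16, -1.59 ± 0.43 for Cxcr6 and -0.52 ± 0.07 for Adam10. It was higher by 1.54 ± 0.25 for Cx3cr1 and 0.60 ± 0.17 for Adam17 (SE, edgeR). Between the TNFdARE tissues 4 of the 6 passed, 2 higher and 2 lower in the synovium, against 31.6% and 35.0% of all genes. Cx3cr1 (0.99 ± 0.24) and Adam17 (0.70 ± 0.16) were higher in the TNFdARE synovium, and Cxcr6 (-1.79 ± 0.42) and Adam10 (-0.18 ± 0.07) were lower. The ligands did not pass there: Cx3cl1 differed by 0.08 ± 0.12 (edgeR adjusted p = 0.566), with an interval of 2 SE from -0.16 to 0.33, and Cxcl16 by -0.01 ± 0.26 (edgeR adjusted p = 0.984), with an interval from -0.53 to 0.52. These tissue comparisons use the same 12 libraries as the genotype comparisons.

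For Cx3cl1 the groups thus ran from WT synovium (21.5 ± 2.1 CPM) to TNFdARE ileum (115.8 ± 15.2), TNFdARE synovium (123.0 ± 18.2) and WT ileum (131.7 ± 0.6; SD, n = 3 each), and libraries of neighbouring groups overlapped from the TNFdARE ileum to the WT ileum. For Cxcl16 the order was WT synovium (19.8 ± 3.0), WT ileum (39.2 ± 6.1), TNFdARE synovium (163.1 ± 32.9) and TNFdARE ileum (163.2 ± 60.6), the last pair overlapping. For Cx3cr1 it was WT ileum (18.2 ± 3.5), WT synovium (52.5 ± 8.4), TNFdARE ileum (63.3 ± 23.3) and TNFdARE synovium (126.3 ± 9.6), with overlap between the middle groups. Adam17 had the same order as Cx3cr1, from 63.2 ± 1.9 over 95.5 ± 3.9 and 117.3 ± 34.8 to 190.6 ± 13.1, also with overlap between the middle groups.

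Between genes, levels were compared as CPM per kb of annotated exon. In the WT ileum Adam10 (44.4 ± 3.2) and Cx3cl1 (33.5 ± 0.1) were highest, followed by Cxcl16 (12.98 ± 2.0), Adam17 (8.83 ± 0.27), Cx3cr1 (4.03 ± 0.77) and Cxcr6 (2.296 ± 0.39; SD, n = 3 each). In the WT synovium Adam10 (30.9 ± 1.7) was followed by Adam17 (13.4 ± 0.5), Cx3cr1 (11.7 ± 1.9), Cxcl16 (6.55 ± 0.98), Cx3cl1 (5.46 ± 0.54) and Cxcr6 (0.762 ± 0.303). In both TNFdARE groups Cxcl16 had the highest mean, 54.0 ± 20.1 in the ileum against 54.0 ± 10.9 in the synovium, and Cxcr6 the lowest, 3.53 ± 1.73 and 1.02 ± 0.31. The ratio of ligand to receptor RNA therefore moved differently in the 2 pairs. Cx3cl1 to Cx3cr1 was 8.49 ± 1.46 in the WT ileum and 2.36 ± 1.07 in the TNFdARE ileum, but 0.477 ± 0.099 in the WT synovium and 1.12 ± 0.20 in the TNFdARE synovium. Cxcl16 to Cxcr6 was 5.68 ± 0.67 and 16.5 ± 4.0 in the WT and TNFdARE ileum, and 9.32 ± 2.75 and 54.2 ± 8.2 in the WT and TNFdARE synovium. Genotypes did not overlap in any of these 4 pairs of groups, and the ratios combine values already described. Adam17 to Adam10 was 0.200 ± 0.019 and 0.380 ± 0.101 in the ileum and 0.432 ± 0.006 and 0.703 ± 0.068 in the synovium, WT before TNFdARE. With the length of the principal transcript alone, Adam17 (42.9 ± 2.9 CPM per kb) was level with Adam10 (40.6 ± 1.4) in the TNFdARE synovium, so the order of the 2 proteases depends on the transcript taken as the length.

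Partners and inhibitors of ADAM10 and ADAM17 include the proteins that carry the proteases to the surface and the inhibitors that block them. In the ileum 3 of 16 tested rose and 1 fell (4.12% and 1.57% of all genes), and in the synovium 6 of 18 rose and 3 fell (13.1% and 10.7% of all genes), with median log2 fold changes of 0.18 and 0.24. With the muscle covariate 1 rose and 1 fell in the synovium (401 and 104 of all 15599 genes). Without TNFdARE replicate 2 in the ileum 8 of 17 rose and 4 fell (2609 and 2024 of all 15813 genes). Rhbdf2, the iRhom2 protein that carries ADAM17 to the surface of immune cells, was at 29.1 ± 2.7 CPM in the WT ileum, 49.1 ± 9.8 in the TNFdARE ileum, 30.9 ± 4.2 in the WT synovium and 55.5 ± 2.9 in the TNFdARE synovium (SD, n = 3 each). It passed in both tissues, at a log2 fold change of 0.76 in the ileum and 0.87 ± 0.11 in the synovium. Timp3, the tissue inhibitor that blocks ADAM17, fell in both, from 107.0 ± 8.9 to 73.1 ± 7.9 CPM in the ileum (log2 fold change -0.54 ± 0.10) and from 715.3 ± 86.5 to 384.2 ± 29.1 in the synovium (-0.87). Timp1, an inhibitor of many metalloproteases and of ADAM10, rose by 3.05 ± 0.50 in the ileum and by 2.38 ± 0.34 in the synovium, from 51.4 ± 4.2 to 263.8 ± 109.7 CPM, and Timp2, a related inhibitor, had 0.14 ± 0.12 in the ileum and rose by 0.54 ± 0.11 in the synovium. Of the tetraspanins that carry ADAM10, Tspan33 rose by 2.59 ± 0.49 in the ileum, and Tspan15 fell by 1.52 in the synovium (SE 0.16). Adam9, a related protease, rose by 0.79 ± 0.10 in the synovium. Rhbdf2 in the ileum, Timp1 and Timp3 in the synovium and Timp2 were named after their values were seen. With the muscle covariate the synovium call of Timp3 held (-1.08 ± 0.19, SE). Those of Rhbdf2 (0.78 ± 0.19), Timp1 (2.09 ± 0.57), Tspan15 (-1.45 ± 0.31) and Adam9 (0.81 ± 0.18) did not pass.

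Other surface proteins that ADAM10 or ADAM17 cut included genes with the tissue pattern of Cx3cl1, but more that differed the other way. In the test of the difference between tissues, 4 of 29 were higher and 8 lower in the synovium. The shares over all genes were 5.28% and 6.80%, and the median difference of the 29 was -0.31. Of 29 substrates tested, 4 rose and 0 fell in the ileum, and 11 rose and 4 fell in the synovium, with median log2 fold changes of 0.18 and 0.24. The shares over all genes were 4.12% and 1.57% in the ileum and 13.1% and 10.7% in the synovium, so the count that fell there was near that of all genes. With the muscle covariate 9 rose, among them Tnf, Icam1, F11r and Cdh1, and 0 fell in the synovium (401 and 104 of all 15599 genes). Without TNFdARE replicate 2 in the ileum 12 rose and 1 fell (2609 and 2024 of all 15813 genes). Tnf rose by 4.70 ± 0.68 in the ileum against 4.06 ± 0.15 in the synovium, and Icam1, an adhesion molecule for leukocytes, by 2.73 ± 0.41 and 2.46 ± 0.15. F11r, the junctional adhesion molecule A of epithelium, endothelium and lining macrophages, rose by 1.22 ± 0.08 in the synovium, and its value in the ileum was -0.08. Cdh1, E-cadherin of epithelium and some macrophages, rose by 2.28 ± 0.20 in the synovium from 2.92 ± 0.69 to 14.01 ± 1.13 CPM, and its value in the ileum was -0.08, where the level was above 962 CPM in every library.

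**Figure D4:**
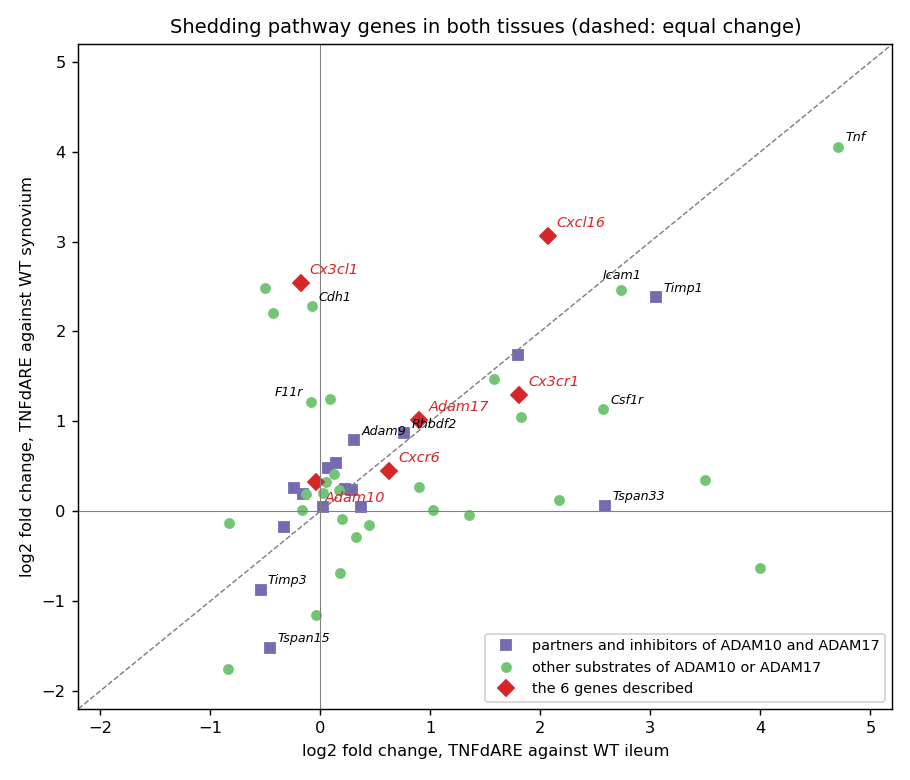
Log2 fold change of TNFdARE against WT in the ileum (horizontal) and in the synovium (vertical) for partners and inhibitors of the proteases (squares), other substrates (circles) and the 6 genes described (red diamonds); the dashed line marks equal change. Cx3cl1, Cdh1 and F11r lie near 0 in the ileum and above 1 in the synovium, whereas Tnf, Icam1, Cxcl16 and Adam17 lie at 0.90 or above in both tissues.

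Of 20 genes that TNF and interferon-gamma induce, 8 rose, 0 fell and 12 did not pass in the ileum, with a median log2 fold change of 2.06. In the synovium 16 rose, 0 fell and 4 did not pass, with a median of 1.69. Of all genes 4.12% rose in the ileum and 13.1% in the synovium. With the muscle covariate 10 rose in the synovium, and without TNFdARE replicate 2 in the ileum 18 rose, with 0 that fell in either. Those fits called 401 of 15599 and 2609 of 15813 genes higher. Leading genes were Cxcl5 (6.39 ± 0.75), Birc3 (1.36 ± 0.19) and Ccl2 (4.05 ± 0.54) in the ileum, and Traf1 (2.26 ± 0.09), Tnfaip3 (1.73 ± 0.09) and Icam1 in the synovium. Cxcl5 and Ccl2 are chemokines for neutrophils and monocytes, and Birc3, Traf1 and Tnfaip3 act in TNF receptor signaling. Cxcl16 passed as higher beside them in both tissues, and Cx3cl1 in the synovium.

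Epithelium and endothelium, which are among the cell types that can make CX3CL1, were checked by their markers. For the counts that follow, 4.12% of all genes rose and 1.57% fell in the ileum. In the synovium 13.1% of all genes rose and 10.7% fell. Of 14 epithelial genes tested in the ileum, 0 rose and 1 fell (Cdx1, an intestinal transcription factor, -0.61 ± 0.10), and summed levels were 19418 to 21085 CPM in WT and 13957 to 18058 in TNFdARE. The ratio of Cx3cl1 to Epcam per kb in the ileum was 0.0311 ± 0.0008 in WT and 0.0338 ± 0.0031 in TNFdARE (SD, n = 3 each), with overlap. In the synovium the summed epithelial level was 36.3 to 41.1 CPM in WT and 33.7 to 45.7 in TNFdARE, with 1 to 4 of the 14 genes at 0 in a library. There 7 genes could be tested, of which Cdh1 rose and 2 fell (Cldn3 and Lgals4). Endothelial genes in the synovium included 2 that rose and 7 that fell of 14, led by Robo4 (-0.57 ± 0.08) and Tek (-0.52 ± 0.07), both endothelial receptors, and by Sele, an adhesion molecule of activated endothelium (1.25 ± 0.19). Their summed level was 1334 to 1398 CPM in WT and 1065 to 1331 in TNFdARE, thus 1330.6 in the highest TNFdARE library against 1333.6 in the lowest WT library. Sele was the 1 endothelial gene that rose with the muscle covariate, and 0 fell. The part of these cell types in the rise of Cx3cl1 was not tested. In the ileum 1 of 13 endothelial genes rose, Pecam1 (0.52 ± 0.10), and 0 fell. Of 10 genes of synovial lining macrophages, 2 rose in the synovium, F11r and Trem2 (1.58 ± 0.12), and 4 fell, among them Tjp1 (-0.60 ± 0.07), and with the muscle covariate 2 rose and 0 fell; in the ileum 1 of 9 rose and 0 fell. Of the other marker lists, fibroblast genes had 4 that rose and 0 that fell of 11 in the ileum, and 5 and 2 of 12 in the synovium. Neutrophil genes had 5 that rose of 7 in the ileum and 0 of 12 in the synovium, B cell genes 0 of 8 in the ileum and 0 that rose and 2 that fell of 10 in the synovium, and skeletal muscle genes 1 that fell of 4 in the ileum and 1 of 13 in the synovium. Without TNFdARE replicate 2, ileum counts were 0 that rose and 8 that fell of 14 epithelial genes, 5 and 1 of 14 endothelial genes, 3 and 0 of 9 lining macrophage genes, 8 and 0 of 11 fibroblast genes, 7 and 0 of 8 neutrophil genes and 9 and 0 of 10 B cell genes. Synovium counts with the muscle covariate were 1 and 0 of 7 epithelial genes, 2 and 1 of 12 fibroblast genes and 0 and 0 of 10 B cell genes. Over all genes, the fit without TNFdARE ileum replicate 2 called 2609 higher and 2024 lower of 15813. The covariate fit called 401 higher and 104 lower of 15599.

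The genes most like each of the 6 were found from log2 CPM centred within each tissue, over 12 libraries and 12672 protein-coding genes, as a description. For Cx3cl1 they were F11r (Pearson r = 0.996), Cyp2s1, AA467197 and Anxa2 (0.988 each) and Mtmr7 (0.985). All 5 were lower in the WT synovium than in any other group: F11r was at 40.7 ± 3.1 CPM there and 93.3 ± 5.2 in the TNFdARE synovium, and Cyp2s1, a cytochrome P450, at 2.78 ± 0.12 and 33.6 ± 6.4 (SD, n = 3 each). For Cxcl16 they were Zmynd15 (0.992), P2rx4, P2ry6 and Saa3 (0.990 each) and Gnptab (0.985), of which P2rx4 and P2ry6 are nucleotide receptors and Saa3 is an acute-phase protein. For Cx3cr1 they were Lacc1 (0.987), Cd300c2 and Ccr2 (0.986 each), and Tnf and C1qc (0.984 each), of which C1qc is a complement chain of macrophages. Among the 6 genes, Adam17 was close to Cxcl16 (0.961) and Cx3cr1 (0.951), and Cx3cl1 was closest to Adam10 (0.813). Libraries of a group share its mean and the tissue means were subtracted, so these values mostly restate the genotype contrasts within each tissue. For Cxcr6 the highest values were 0.870 to 0.899, from Trmt61a, Plk3, Acsbg1, Twistnb and Castor1, and its few counts limit them.

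**Figure D5:**
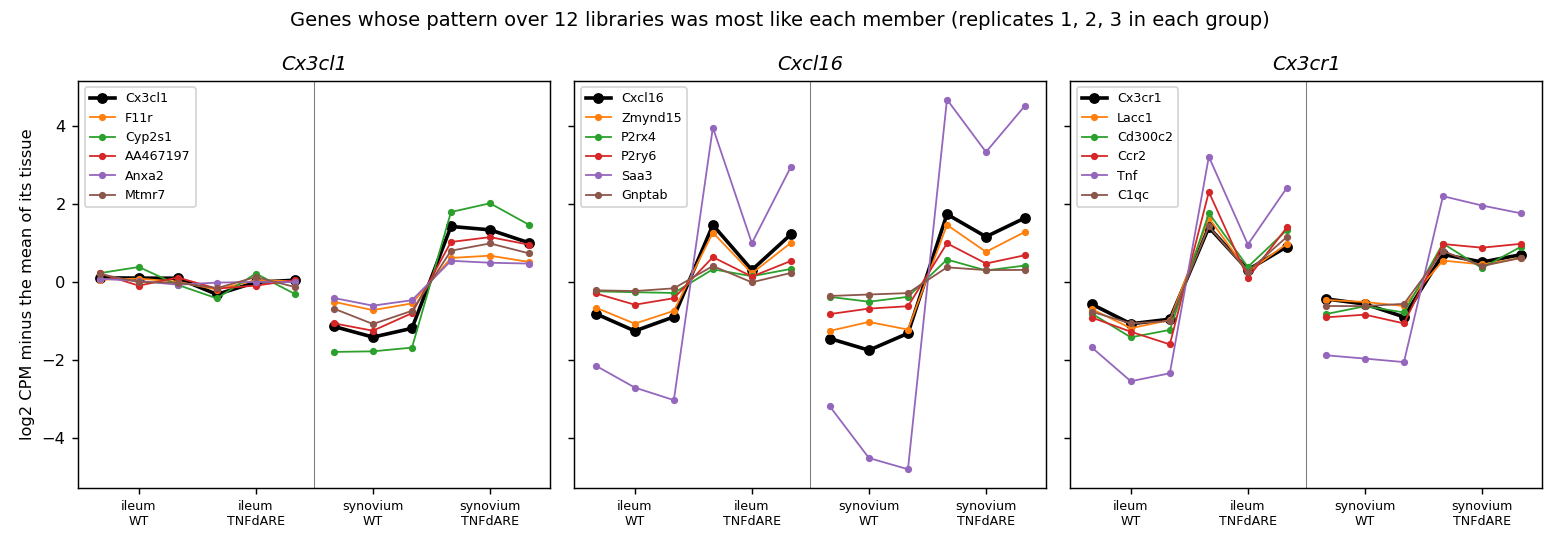
Log2 CPM minus the mean of its tissue (vertical axis) in the 12 libraries, 3 replicates per group, for Cx3cl1, Cxcl16 and Cx3cr1 (black) and the 5 protein-coding genes most like each (colored). The Cx3cl1 panel has no step up from WT to TNFdARE in the ileum and a step up in the synovium. The other panels step up in both tissues, with TNFdARE ileum replicate 2 the lowest of its group for Cxcl16 and Cx3cr1.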

How the data were processed

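RNA of 12 libraries was isolated with the RNeasy Micro kit and sequenced as single reads of 100 cycles from poly-A selected, stranded libraries, per the labels' protocols. The authors used cutadapt 1.15 and Bowtie2 2.3.3.1 on GRCm38, per the submitters' processing notes; not given in the sources used here were the counting tool, its annotation and its strand setting. Raw whole-number counts were deposited by the authors for 46603 genes, of which 19236 were at 0 in every library, and FPKM values for 17046 genes, whose scaling those sources do not state. Annotation matched 98.7% of the genes by Ensembl ID (GENCODE, GRCm38).

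The 6 genes and the 12 gene lists were chosen with earlier results of these data known. Counts were fitted within each tissue, and over all 12 libraries for comparisons between tissues, with edgeR 4.0.16 in R 4.3.3 (filterByExpr, TMM, robust quasi-likelihood test, 2-sided, Benjamini-Hochberg over all genes tested, threshold 0.05). SE is the log2 fold change divided by the square root of F. The fit was tested on simulated counts. Alternatives were RLE factors, no filter, DESeq2 1.42.0, limma-voom (limma 3.58.1), log2(deposited FPKM + 1 or + 0.1) with limma, 12 libraries in 1 fit, the replicate number as a block, leaving out each library, and a muscle covariate. Named genes were the 6, the 3 called genes with the smallest adjusted p per list and tissue (the most abundant where none was called), and the 5 most correlated genes; not all are printed. P-values measure the spread between libraries, which is that of mice only as far as the numbering as biological replicates holds. Replicates differed by 11.2 to 92.9 times the variance of counting alone, so none was a repeated library. Deviations of equally numbered libraries correlated at 0.177 to 0.455 in the synovium (every pair above 0.1), so the numbers there met the criterion for pairs. In the ileum 1 of 3 pairs was at 0.087 and they did not. Unequal numbers correlated at -0.424 to 0.164 in the synovium and -0.282 to 0.148 in the ileum, so the criterion does not establish pairs. Reported fits have no block. For the 6 genes the blocked value is printed where it changes a call, and for the gene lists no blocked values are given.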

Additional observations from a re-analysis of the deposited data

Results flagged for a closer look

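The effect of the TNFdARE allele differed between the tissues, by the edgeR test of the difference itself, for Cx3cl1 and for 11 of the listed genes named. Of 16964 genes tested, 5.28% were called higher and 6.80% lower in the synovium. The 11 were taken only from genes already named above, so nothing is read from their number. The log2 difference (synovium minus ileum) was 2.70 for Cx3cl1. Genes with a higher value in the synovium were Cdh1 (2.34) and F11r (1.28). Genes with a lower value there were Tbx21 (-2.65), Tspan33 (-2.55), Cldn3 (-2.04), Csf1r (-1.46), Tspan15 (-1.09), Zbtb46 (-1.05), Itga1 (-0.87), Pecam1 (-0.76) and Tjp1 (-0.56). Cldn3 was very low in the synovium, at 0.69 to 1.30 CPM in WT and 0.12 to 0.35 in TNFdARE. Each group held 3 libraries, and for the 11 listed genes values on leaving out 1 library are not given here.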

How the results depend on the processing

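The 2 ileum calls were lost without a filter on low counts (Cxcl16 2.06, Cx3cr1 1.80), with limma-voom (1.99 and 1.75) and on the deposited FPKM with pseudocount 1 (1.83 and 1.42) or 0.1 (1.90 and 1.56), which left 0 of the 6 genes called. Over all genes, 879 were called in the ileum by edgeR, 2703 by DESeq2, 2722 in the fit of 12 libraries, 0 by limma-voom and FPKM, and 0 to 4633 on leaving out 1 library, the most without TNFdARE replicate 2. In the synovium 3713 were called, 505 with the muscle covariate and 2141 to 2927 on leaving out 1 library. For the difference between tissues 2050 were called, 3192 by DESeq2 and 1015 to 3506 on leaving out 1 library. Its calls split as 896 higher and 1154 lower with TMM and as 1115 and 1011 with RLE factors. Adam17 in the ileum passed with DESeq2 (0.90) and in the fit of 12 libraries (0.90). Adam10 in the ileum turned to 0.083 and 0.085 on the FPKM scales, without passing, and in the synovium it did not pass on either FPKM scale (0.24 and 0.24) or with the muscle covariate (0.19).

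Of the 6 genes, 2 were called for the difference between tissues with RLE factors, 3 with DESeq2 and 2 with the replicate block. Cxcl16 passed with DESeq2 (1.05) and with the replicate block (1.01), and Adam10 with RLE factors (0.40) and DESeq2 (0.40). Cxcr6 turned to 0.035 and 0.29 on the FPKM scales. Adam10 between the WT tissues did not pass on FPKM (-0.10 and -0.10). Between the TNFdARE tissues it did not pass with RLE factors (-0.15), without the filter (-0.18), with DESeq2 (-0.14) or with the block (-0.18), and turned to 0.054 and 0.055 on the FPKM scales. Cxcl16 there turned to 0.038 with RLE factors, 0.042 with DESeq2, 0.049 with limma-voom, 0.034 with the block, and 0.28 and 0.29 on FPKM, never passing. The cause of these shifts was not tested. The replicate block changed no call of the 6 genes within either tissue; over all genes it called 1128 in the ileum and 4842 in the synovium. Numbers in the ileum correlated at 0.087 to 0.255, and across tissues at -0.108 to 0.165.

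On leaving out 1 library the number of the 6 genes called was 0 to 4 in the ileum and 1 to 3 for the difference. Ranges in the ileum were 1.83 to 2.35 for Cxcl16, 1.51 to 2.05 for Cx3cr1, 0.31 to 0.98 for Cxcr6, -0.097 to 0.0057 for Adam10 and 0.66 to 1.09 for Adam17. Adam10 in the synovium ran from 0.29 to 0.37. The difference between tissues ran from 0.80 to 1.29 for Cxcl16, -0.46 to 0.20 for Cxcr6, 0.31 to 0.46 for Adam10 and 2.61 to 2.83 for Cx3cl1, which passed in all 12 omissions and under each other alternative run. Between the TNFdARE tissues the ranges were -0.21 to 0.30 for Cxcl16 and -0.21 to -0.11 for Adam10. Depth limits Cxcr6, with 14 to 136 counts.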
